A study of Homo sapiens with 4 samples.

Results

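The enzymes that build purine and pyrimidine nucleotides from small precursors were followed in 2 human leukemia cell lines given periplocin, a compound of Cortex periplocae. The gene set was a list of 10 symbols, CAD, DHODH and UMPS of the pyrimidine pathway and PPAT, GART, PFAS, PAICS, ADSL, ATIC and IMPDH2 of the purine pathway, and all 10 were found by Ensembl identifier among the 20348 genes of the deposited count table. K562, from chronic myeloid leukemia, and THP-1, from acute monocytic leukemia, are each a single established line grown in culture. In each line 1 library came from cells kept 72 h in DMSO, which the sample titles call a blank control, and 1 from cells kept 72 h in 100 nM periplocin. There were thus 4 libraries and no replicates, and no difference given below has a replicate check.

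Purines are assembled step by step on phosphoribosyl pyrophosphate (PRPP), a sugar phosphate, until the ring of inosine monophosphate (IMP) is closed, and IMP is then turned into AMP or GMP. In the pyrimidine pathway the ring is made first and is joined to PRPP later, to give uridine monophosphate (UMP). Dividing cells draw on both routes for RNA and DNA, and inhibitors of DHODH and of IMP dehydrogenase are used in medicine to slow the growth of lymphocytes. MYC is known to bind and activate many of these genes, often at the sequence CACGTG, the E-box, which USF factors bind as well.

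Periplocin was accompanied by lower levels of nearly the whole set in THP-1 and by smaller differences in the same direction in K562. In THP-1, 7 of the 10 genes were at least 2-fold lower in periplocin, a share of 70% against 10.5% of all 12341 genes tested, and the median log2 fold change of the set was -1.39 against -0.02 over all genes. The 10 genes were chosen with earlier results of these data known, so the contrast with all genes is a description. IMPDH2, the main IMP dehydrogenase, had the largest difference and was 8.76-fold lower. In K562, 0 of the 10 were at least 2-fold lower, where 11.6% of all 11862 genes were, and the median log2 fold change was -0.42 against -0.01 over all genes. At a limit of 1.5-fold, 4 of the 10 were lower in K562 (22.0% of all genes) and 9 of the 10 in THP-1 (21.2% of all genes). All 10 values were below 0 in both lines under each of the alternative settings tried, where 50.8% of all genes in K562 and 51.5% in THP-1 were below 0, although for UMPS, which makes UMP, the interval held 0 in both lines.

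A log2 fold change here compares the share of counts in the periplocin library with that in the DMSO library of the same line after TMM scaling, and a gene was tested if the pair averaged 1 CPM or more, where CPM is the count per 1000000 counts of the library. The interval given with it is an exact binomial 95% interval of the 2 counts. It covers counting error only and compares 2 libraries, not 2 conditions. In bulk RNA, fewer cells that make a transcript and less of it per cell cannot be told apart. At this dose and time the paper reported more apoptotic cells in both lines. Library totals lay between 16381149 and 20622694 counts, and the share of mitochondrially encoded genes was lower with periplocin in both lines, at 2.07% against 5.62% in K562 and 3.92% against 5.24% in THP-1. Of 7 erythroid markers, GATA1, KLF1, TAL1, HBG1, HBG2, HBZ and EPOR, 0 were at or under 3 counts in the K562 libraries, and their summed level was 1860 and 8100 CPM there against 10.3 and 7.73 CPM in THP-1. Of 8 monocytic markers, SPI1, LYZ, CD33, CEBPA, CSF1R, CSF3R, ITGAM and CD14, 0 were at or under 3 counts in THP-1, where they summed to 1040 CPM in DMSO and 969 CPM in periplocin, against 97.5 and 92.6 CPM in K562.

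**Figure D1:**
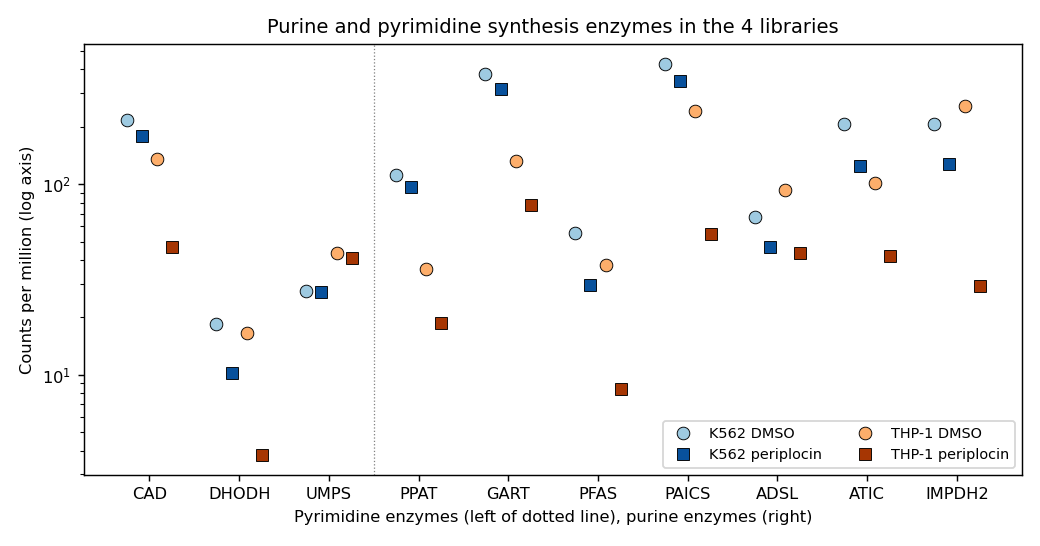
Level of each of the 10 enzyme genes in CPM (log axis), with 1 point per library. In THP-1 the periplocin square lies under the DMSO circle for every gene, by little for UMPS (43.64 and 41.19 CPM) and by most for IMPDH2 (257.0 and 29.12 CPM).

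PPAT and PAICS, the enzymes of the first and of the sixth and seventh steps of purine synthesis, lie head to head on chromosome 4. In GENCODE release 29 on GRCh38, PPAT spans 56393362 to 56435615 on the minus strand and PAICS 56435741 to 56464579 on the plus strand, so their starts are 126 bp apart and point away from each other. The stretch between these starts, chr4:56435616-56435740, is shown on the plus strand because both genes are transcribed away from it. Capitals mark its 1 copy of GGCGGG, a motif of SP factors.
PPAT-PAICS: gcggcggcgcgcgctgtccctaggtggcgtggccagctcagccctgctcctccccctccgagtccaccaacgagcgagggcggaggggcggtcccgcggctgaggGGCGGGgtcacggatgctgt

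Promoter windows of RefSeq on GRCh38.p14, from 250 bases before to 50 after a start, were found for 8 of the 10 genes, and ADSL and IMPDH2 were not among them. CACGTG, which reads the same on both strands, was in a window of 4 of these 8 genes, DHODH, PPAT, PAICS and ATIC, and in a window of 10.9% of 15272 protein-coding genes. Per window the share was 8.3% of 21526. GGCGGG on either strand was in a window of all 8, and of 65.1% of genes. CCAAT, the motif of NF-Y, was in a window of 3 of the 8, CAD, DHODH and GART, and of 42.5% of genes. Matches of different motifs were allowed to overlap, and a match is a description of these letters, not a bound site.

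The CACGTG sites are shown with 12 bases on either side, in capitals, to place them relative to the genes whose values follow. PPAT and PAICS have the same site. Its first base is at -182 relative to the PPAT start of RefSeq and at 40 relative to one of the 3 RefSeq starts of PAICS, at chr4:56435780-56435809 with its flanks on the minus strand. The DHODH site is at -159 relative to the RefSeq start of 72008744, at chr16:72008573-72008602 on the plus strand. The GENCODE start of DHODH, 72008588, lies within this CACGTG, whose first base is at 72008585. ATIC has a site at -46 relative to its RefSeq start, at chr2:215312001-215312030, and another at 29, at chr2:215312076-215312105, both on the plus strand. This start, 215312059, is the one meant in the labels below. Both sites lie inside the GENCODE span of ATIC, which begins at 215311817.
PPAT and PAICS: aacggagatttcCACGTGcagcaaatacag
DHODH: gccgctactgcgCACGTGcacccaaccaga
ATIC before the start: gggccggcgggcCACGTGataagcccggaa
ATIC after the start: ctcctacctgcgCACGTGgtgccgccgctg

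In the pyrimidine pathway CAD and DHODH were at least 2-fold lower in THP-1, and for UMPS the difference was within counting error. CAD (ENSG00000084774), a single large protein of 2225 amino acids that carries out the opening 3 reactions of the pathway, lies on chromosome 2 from 27217390 to 27243943 and has 44 exons. K562 gave 3558 counts with DMSO and 2961 with periplocin, and THP-1 gave 2793 and 830. The treated THP-1 library was thus the lowest of the 4, with 46.84 CPM against 135.4 CPM in its control. The log2 fold change of CAD was -1.52 (interval -1.63 to -1.41) in THP-1 and -0.29 (-0.36 to -0.22) in K562.

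DHODH (ENSG00000102967), the mitochondrial inner membrane enzyme of 395 amino acids that oxidizes dihydroorotate to orotate, lies on chromosome 16 from 72008588 to 72027664 and has 9 exons. It was the least abundant by counts, with 301 counts with DMSO and 169 with periplocin in K562, and 340 and 67 in THP-1. Both periplocin libraries were below both DMSO libraries. The difference was 4.32-fold in THP-1 (log2 -2.11, -2.51 to -1.73) and 1.81-fold in K562 (log2 -0.86, -1.14 to -0.58), and its intervals were the widest of the set.

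UMPS (ENSG00000114491), the enzyme of 480 amino acids that joins orotate to PRPP and removes its carboxyl group, lies on chromosome 3 from 124730366 to 124749273 and has 6 exons. It had 453 and 450 counts in the K562 libraries, and 900 and 730 in the THP-1 libraries, in the order DMSO and periplocin, which is also the order of the pairs of counts that follow. As CPM the K562 values were 27.65 and 27.17 and the THP-1 values 43.64 and 41.19, so that the lines were further apart than the treatments. The log2 fold change was -0.04 (-0.23 to 0.16) in K562 and -0.07 (-0.21 to 0.07) in THP-1, so that no difference was detectable at this depth. CAD, per kilobase of transcript, was at 2.88 times the level of UMPS in the THP-1 control and at 1.05 times after treatment.

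In the purine pathway all 7 genes were at least 1.5-fold lower in THP-1, and the size of the difference varied along the pathway. PPAT (ENSG00000128059), the amidotransferase of 517 amino acids that commits PRPP to purines, had 1826 and 1601 counts in K562 and 737 and 329 in THP-1. Its log2 fold change was -0.22 (-0.31 to -0.12) in K562 and -0.93 (-1.13 to -0.74) in THP-1, just short of the 2-fold limit. Of its exon bases 121 (2.2%) overlap the lincRNA AC068620.2, which is not in the count table. GART (ENSG00000159131), a protein of 1010 amino acids that carries out the second, the third and the fifth steps, had 6227 and 5242 counts in K562 and 2730 and 1382 in THP-1. It had the smallest difference of the purine genes in THP-1, with a log2 fold change of -0.75 (-0.85 to -0.66), and -0.27 (-0.33 to -0.22) in K562. GART lies on chromosome 21 from 33503931 to 33543491, and 275 of its exon bases (3.5%) overlap SON on the other strand. The sources do not say whether strand was used in counting, so reads from overlapping genes may not have been told apart.

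PFAS (ENSG00000178921), which carries out the fourth step and has 1338 amino acids, lies on chromosome 17 from 8247618 to 8270491. K562 gave 912 and 489 counts, and THP-1 gave 776 and 150. Both periplocin libraries were below both DMSO libraries. With a log2 fold change of -0.93 (-1.09 to -0.77) PFAS had the largest difference of the set in K562, and in THP-1 the log2 fold change was -2.14 (-2.40 to -1.89).

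PAICS (ENSG00000128050), whose 425 amino acids hold the sixth and the seventh activities, had 7030 and 5738 counts in K562, the highest of the set, and 4990 and 969 counts in THP-1. The log2 fold change was -0.32 (-0.37 to -0.27) in K562 and -2.13 (-2.23 to -2.03) in THP-1. PPAT, which shares the stretch printed above with PAICS, had a smaller difference in THP-1, and the intervals of these neighbours did not overlap. In K562 the intervals of the pair did overlap. The ratio of PAICS counts to PPAT counts was 3.85 and 3.58 in the K562 libraries, and went from 6.77 with DMSO to 2.95 with periplocin in THP-1.

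ADSL (ENSG00000239900), the lyase of 484 amino acids that acts in the eighth step and again on the way to AMP, lies on chromosome 22 from 40346500 to 40390463. It had 1099 and 776 counts in K562 and 1920 and 775 in THP-1, with log2 fold changes of -0.53 (-0.66 to -0.39) and -1.08 (-1.20 to -0.96). Of its annotated exon bases, 1344 (18.9%) also belong to AL022238.4, a protein-coding gene on the same strand that is in the count table, and the ADSL counts were not whole numbers in 3 libraries, so this gene is less certain. ATIC (ENSG00000138363), which has 592 amino acids and closes the ring to IMP, lies on chromosome 2 from 215311817 to 215349773. It had 3376 and 2058 counts in K562 and 2093 and 740 in THP-1, with log2 fold changes of -0.74 (-0.82 to -0.66) and -1.27 (-1.39 to -1.15).

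IMPDH2 (ENSG00000178035), the enzyme of 514 amino acids that directs IMP towards GMP, lies on chromosome 3 from 49024325 to 49029408 on the minus strand and has 14 exons. K562 gave 3379 and 2112 counts, and THP-1 gave 5301 and 516. The THP-1 libraries were the highest and the lowest of the 4. The log2 fold change was -3.13 (-3.26 to -3.0) in THP-1, where only 52 of the 12341 genes tested (0.421%) had a lower value, and -0.70 (-0.78 to -0.63) in K562, where 18.3% of genes had a lower value. The IMPDH2 counts were not whole in any of the 4 libraries, and 93 of its exon bases (3.4%) overlap the antisense gene AC137630.3, which is not in the count table.

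**Figure D2:**
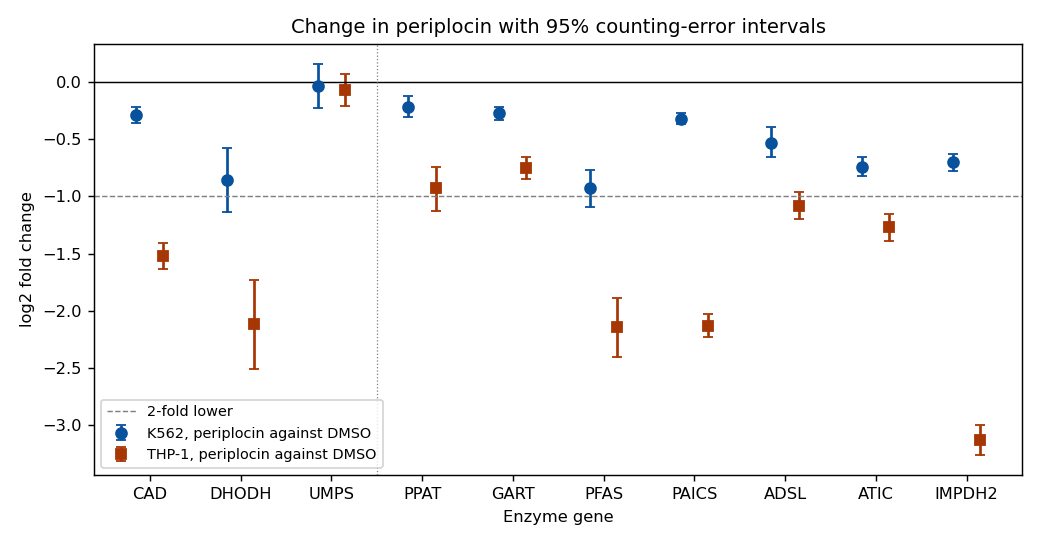
log2 fold change of each enzyme gene, periplocin against DMSO, in K562 (circles) and THP-1 (squares), with bars for the 95% counting-error interval and a dashed line at 2-fold lower. For 9 genes the THP-1 value lies under the K562 value with no overlap of the bars, and for UMPS both bars hold 0.

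The difference between the lines was itself computed for each gene as the THP-1 value minus the K562 value, with an interval from the 4 counts. It was below 0 with an interval that excluded 0 for 9 of the 10 genes, and the median was -0.97 against -0.04 over the 10779 genes tested in both lines. IMPDH2 differed most, by -2.43 on the log2 scale (-2.58 to -2.28), followed by PAICS, at -1.81 (-1.92 to -1.70). DHODH, CAD and PFAS were at -1.25, -1.23 and -1.21. GART, ATIC and ADSL differed less, at -0.48, -0.53 and -0.55, PPAT was between these groups at -0.72, and UMPS was at -0.04 (-0.28 to 0.20). These intervals cover counting error only, and whether the lines differ beyond the spread between cultures was not tested.

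**Figure D3:**
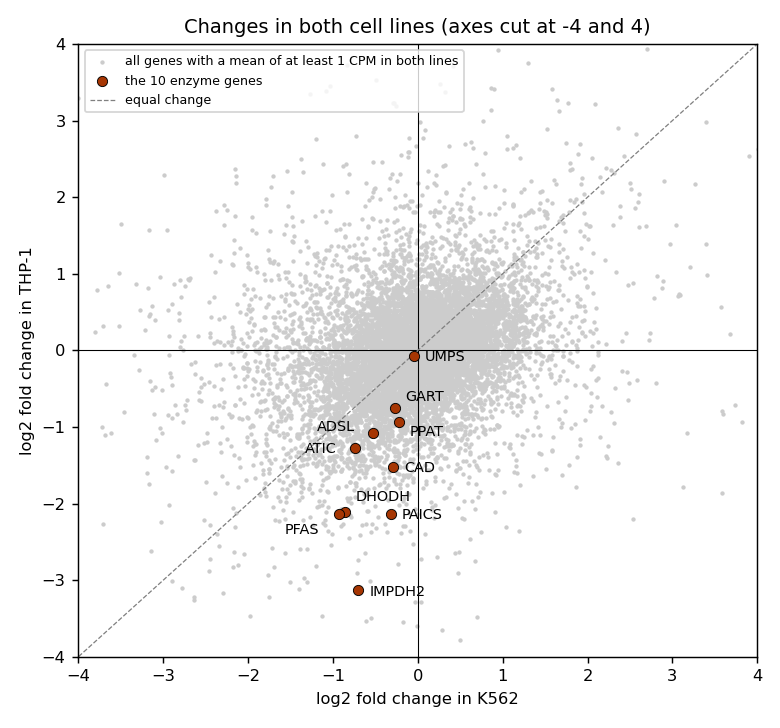
log2 fold change in K562 (horizontal) and THP-1 (vertical) for all genes averaging 1 CPM or more in each line (grey) and the 10 enzyme genes (red). The enzyme genes lie at the lower left, where both values are below 0, and all lie on or under the dashed line of equal change, IMPDH2 the farthest from it. Genes beyond the axis limits are not drawn.

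Summed over the 10 genes, K562 had 1719 CPM with DMSO and 1304 CPM with periplocin, and THP-1 had 1095 CPM and 366.1 CPM. The treated THP-1 library was the lowest of the 4 and K562 was above THP-1 in DMSO. In the DMSO libraries 3 of the 10 genes were higher in THP-1 than in K562, where 6552 of all 12845 genes tested were, and 7 were lower, DHODH within counting error. The median log2 ratio of THP-1 over K562 was -0.50 for the 10 genes and 0.02 over all genes. PPAT and GART differed most, being 2.87-fold and 2.64-fold higher in K562. UMPS, ADSL and IMPDH2 were 1.72-fold, 1.51-fold and 1.36-fold higher in THP-1. DHODH did not differ beyond counting error, with a log2 ratio of -0.04 (-0.26 to 0.19).

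The order of the levels was taken per kilobase of the principal coding transcript, since counts scale with length. Among equal principal transcripts the longest was used. Which transcript the cells express was not examined, so the order also depends on the annotated lengths. In THP-1 DMSO IMPDH2 stood first with 156 CPM per kb, ahead of ATIC with 45.9, GART with 37.9 and PAICS with 37.3, and the last pair overlapped within counting error. ADSL (21.4 CPM per kb), CAD (18.6) and PPAT (9.71) came next, and PFAS (7.01), DHODH (6.80) and UMPS (6.48) were the lowest, with overlapping intervals between neighbours. In THP-1 periplocin GART stood first with 22.3 CPM per kb, ATIC (18.9) and IMPDH2 (17.7) overlapped behind it, and UMPS, at 6.11, overlapped with CAD, at 6.45, in the middle of the list. In K562 DMSO the order began with IMPDH2 (126 CPM per kb), GART (109), ATIC (93.1) and PAICS (66.2), and UMPS (4.10) was the lowest. In K562 periplocin IMPDH2 (77.6) was second to GART (90.7).

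IMPDH1, chosen after its values were seen, encodes the other IMP dehydrogenase. It had 759 and 506 counts in K562 and 1999 and 1452 counts in THP-1, and its log2 fold change was -0.61 (-0.78 to -0.45) in K562 and -0.23 (-0.33 to -0.13) in THP-1. Per kilobase, IMPDH2 was at 7.81 and 7.32 times the level of IMPDH1 in the K562 libraries and at 4.65 times in THP-1 DMSO. In THP-1 periplocin the ratio was 0.623, so that IMPDH1 had the higher level there. The sequences of these genes are similar, so their split of reads is less certain.

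**Figure D4:**
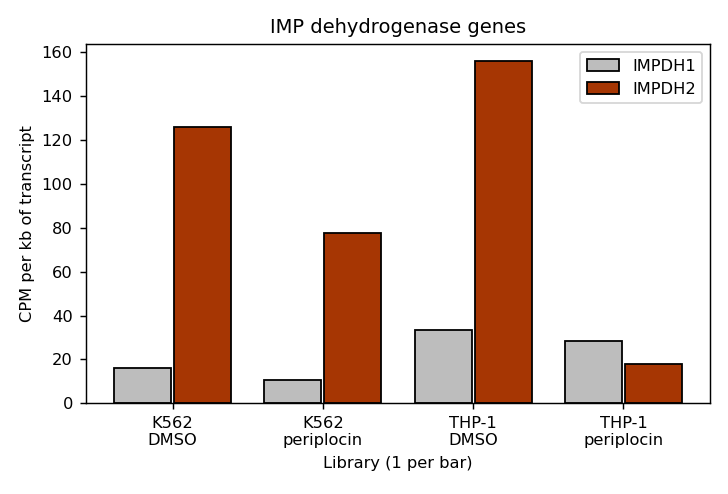
Level of IMPDH1 (grey) and IMPDH2 (red) in CPM per kilobase of transcript in the 4 libraries, 1 bar per gene and library. IMPDH2 is the higher bar in 3 libraries, and in THP-1 periplocin it stands at 17.7 under IMPDH1 at 28.4.

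The fit over the 4 libraries takes cell line and treatment as terms and uses as its error how far the responses of the lines differ, with 1 residual degree of freedom. In edgeR's quasi-likelihood test 0 of 13584 genes (0.00%) had an adjusted p under 0.05, and the adjusted p of the 10 genes ran from 0.373 for PFAS to 0.966 for UMPS. An unadjusted p under 0.05 was reached by 6 of the 10, DHODH, PFAS, PAICS, ADSL, ATIC and IMPDH2, and by 1535 genes (11.3%) in all. DESeq2 with the same terms gave an adjusted p under 0.05 to 131 of 11213 genes (1.17%) and to 0 of the 10, with IMPDH2 the lowest at 0.0982. The fit asks for a like change in both lines. For IMPDH2 and PAICS the lines were far apart, and the part of this in the p-values above was not tested.

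The genes around the set in nucleotide metabolism were taken from 6 lists of 61 genes. In THP-1, 9 of the 54 tested (16.7%) were at least 2-fold lower and 2 (3.70%) at least 2-fold higher, where all genes gave 10.5% and 8.03%, and the median log2 fold change was -0.41. In K562, 4 of 51 (7.84%) were at least 2-fold lower and 0 higher, where all genes gave 11.6% and 8.84%, and the median was -0.14.

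The enzymes that supply PRPP, PRPS1 and PRPS2 with their associated proteins PRPSAP1 and PRPSAP2, had 0 of 4 genes past 2-fold in either line, with medians of 0.07 in K562 and -0.16 in THP-1. On the branches from IMP and UTP, the 6 genes were all below 0 in THP-1, with a median of -0.64, and 2 were at least 2-fold lower. ADSS2, the adenylosuccinate synthase that takes IMP towards AMP, had 1362 and 884 counts in K562 and 2138 and 699 in THP-1, with log2 fold changes of -0.65 (-0.77 to -0.53) and -1.38 (-1.51 to -1.26). GMPS, which follows IMPDH2 on the way to GMP and was chosen after its values were seen, had 5457 and 3208 counts in THP-1 (log2 -0.54, -0.60 to -0.47) and 2847 and 3433 in K562 (log2 0.24, 0.17 to 0.32). CTPS2, a CTP synthase, had 1213 and 590 counts in K562 and was 2.09-fold lower there, and 1.67-fold lower in THP-1.

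In salvage, the reuse of bases and nucleosides, 12 of 13 genes were tested in THP-1 and the median was -0.26, and 11 were tested in K562 with a median of -0.14. The purine salvage enzymes HPRT1 and APRT were the 2 at least 2-fold lower in THP-1. HPRT1, which rebuilds IMP and GMP, had 1430 and 597 counts there (log2 -1.03, -1.17 to -0.89), and 1660 and 1111 counts in K562 (log2 -0.61, -0.72 to -0.5). APRT, which rebuilds AMP, had 1142 and 436 counts in THP-1 (log2 -1.16, -1.32 to -1.0), and 718 and 797 counts in K562 (log2 0.12, -0.02 to 0.27).

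Among 13 nucleotide kinases, which add phosphates to finished nucleotides, 3 were at least 2-fold lower in THP-1 and the median was -0.48, while in K562 1 was and the median was 0.31. NME1 and NME2 are nucleoside diphosphate kinases with similar sequences between which reads could be divided. They were 3.07-fold and 2.65-fold lower in THP-1 and 1.69-fold and 1.86-fold lower in K562. A separate entry, NME1-NME2, joins both genes, so reads could be divided with it as well. It had 28 and 147 counts in K562 (log2 2.36) and 101 and 31 in THP-1 (log2 -1.47). CMPK2, a mitochondrial kinase, had 1183 and 334 counts in K562 (log2 -1.85) and 278 and 245 in THP-1, where the log2 fold change was 0.05 (-0.21 to 0.30).

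Among 9 genes of deoxynucleotide synthesis, RRM2, the small subunit of ribonucleotide reductase, was lower in both lines. It had 4505 and 1563 counts in K562 (log2 -1.55, -1.64 to -1.47) and 2765 and 623 in THP-1 (log2 -1.92, -2.05 to -1.79). In the fit over the 4 libraries RRM2 had an adjusted p of 0.359 in edgeR's quasi-likelihood test and of 0.000214 in DESeq2. DCTPP1, which breaks down dCTP and modified forms of it, had 745 and 346 counts in K562 (log2 -1.13) and 615 and 289 in THP-1 (log2 -0.86). The list's medians were -0.13 in K562 and -0.68 in THP-1.

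Breakdown genes had the highest median of these lists in THP-1, at -0.09, with 10 of 16 genes tested, and a median of -0.28 in K562 with 8 tested. NT5E, the surface enzyme CD73 that dephosphorylates AMP, had 110 and 771 counts in THP-1, 8.21-fold higher with periplocin (log2 3.04, 2.75 to 3.34). In the K562 libraries NT5E was at 0 and 2 counts, under the floor of 3.

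**Figure D5:**
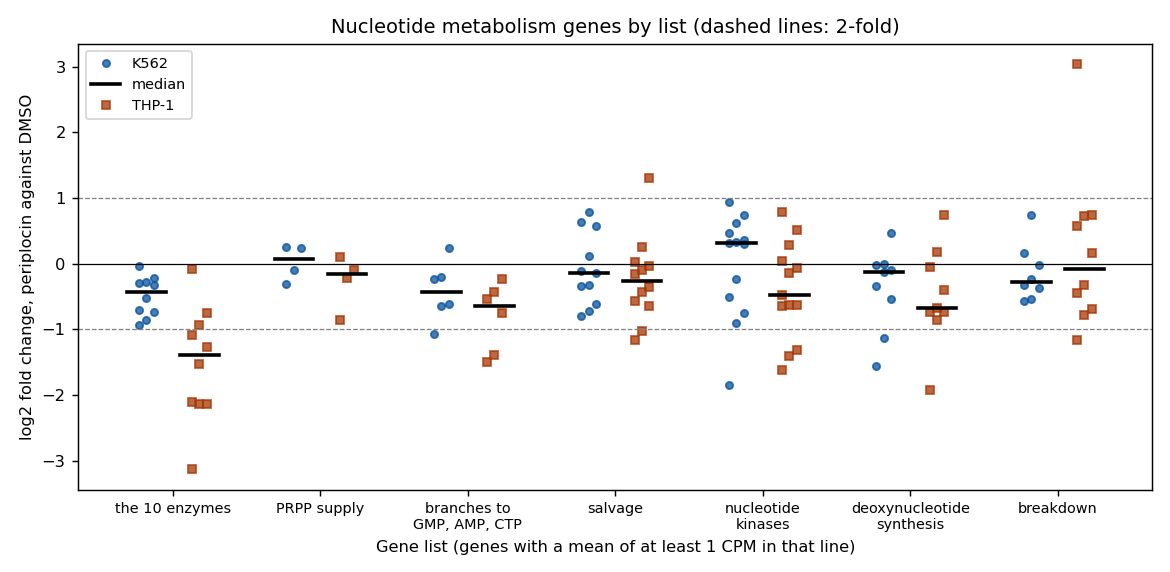
log2 fold change, periplocin against DMSO, of the 10 enzymes and of 6 lists of other nucleotide metabolism genes in K562 (circles) and THP-1 (squares), with black bars for the medians. The 10 enzymes have the lowest THP-1 median, at -1.39, and the deoxynucleotide genes and branch genes follow at -0.68 and -0.64.

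Other measures differed between the same libraries. MYC had 5322 and 2889 counts in K562 and 5889 and 1024 counts in THP-1, with log2 fold changes of -0.91 (-0.97 to -0.84) and -2.29 (-2.39 to -2.20). The list of 10 proliferation genes held MKI67, PCNA, TOP2A, MCM2 to MCM7 and MYC. With periplocin, 7 of these were higher in K562 and 3, MYC among them, were lower (list median 0.63 on the log2 scale). For THP-1 the numbers were 2 higher and 8 lower (list median -0.48). The summed level of that list was 3270 and 4300 CPM in K562 and 3830 and 3260 CPM in THP-1. All of these are RNA levels. By flow cytometry at this dose and time, the paper reported fewer cells in S phase in both lines. The erythroid markers, whose summed levels are given above, were all higher in K562 periplocin, with a median log2 fold change of 1.75. Of the 8 monocytic markers in THP-1, 2 were at least 2-fold higher with periplocin and 1 at least 2-fold lower, with a median of -0.20. CD14 had 8 and 382 counts there (log2 5.78, 4.81 to 7.03), ITGAM had 572 and 1063 (log2 1.12, 0.98 to 1.27), and CSF3R had 2315 and 758 (log2 -1.38, -1.5 to -1.26). In K562, 6 of these markers were tested, with 2 at least 2-fold higher, 2 at least 2-fold lower and a median of -0.24. The higher ones were CD14, with 1 and 69 counts, and ITGAM, with 33 and 75 (log2 1.16). The lower ones were CSF3R, with 84 and 12 counts (log2 -2.82), and CD33 (log2 -1.54). The part of MYC, of proliferation, and of the erythroid and monocytic genes in the levels of the 10 enzymes was not tested. With the mitochondrially encoded genes removed from the counts, the number of enzymes at least 2-fold lower was again 0 in K562 and 7 in THP-1.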

How the data were processed

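Poly-A RNA from K562 and THP-1 cells was sequenced as paired-end reads, and the authors deposited 1 table of expected counts (estimated counts per gene that need not be whole), neither normalized nor pooled. The submitters' processing notes name HISAT2, StringTie 1.3.1 and hg38, and the counting program and annotation are not given in the sources used here. Rounding to whole numbers was applied first, and 0 sample columns were left out. Totals of 16381149 to 20622694 counts set the counting precision.

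Within each line TMM factors came from edgeR 4.0.16 in R 4.3.3, with a prior count of 0.125. Intervals of the fold changes and of the DMSO ratios were Clopper-Pearson. For the difference between the lines they were normal approximations from the 4 counts, and for levels per kilobase they were exact Poisson intervals. A call was a change of at least 2-fold where the pair averaged 1 CPM or more, with no p-value. The fit over 4 libraries used edgeR's quasi-likelihood test with Benjamini-Hochberg adjustment, on genes reaching 10 counts in 2 or more libraries, and DESeq2 1.42.0 was the alternative. The scripts were tested on simulated data. Gene symbols matched 20310 of 20348 identifiers, positions and transcript lengths came from GENCODE release 29 (GRCh38), and promoter windows from RefSeq (GRCh38.p14). The 10 genes and the lists were chosen with earlier results of these data known. Other genes were named if changed at least 2-fold in a line where they averaged 10 CPM or more, besides IMPDH1, GMPS and MYC, named after their values were seen. In the erythroid marker list 1 gene is not reported here. Genes of like profile were the 5 nearest in centred log2 CPM. Alternatives were other scalings, filters, prior counts and folds.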

Additional observations from a re-analysis of the deposited data

Results flagged for a closer look

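NME4, a mitochondrial nucleoside diphosphate kinase, differed in opposite directions in the 2 lines, with a log2 fold change of 0.48 (interval 0.37 to 0.59) in K562, from 1144 to 1621 counts, and -1.31 (-1.45 to -1.18) in THP-1, from 1707 to 586 counts. Each direction rests on 1 library per condition, and whether the lines differ beyond the spread between cultures was not tested. Opposite directions were not particular to NME4 among the nucleotide metabolism genes. GMPS, for example, was at 0.24 in K562 and -0.54 in THP-1. All 10 synthesis enzymes had values below 0 in both lines. Groups of 1 library were not examined for outliers.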

How the results depend on the processing

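The number of the 10 enzymes at least 2-fold lower was 0 in K562 and 7 in THP-1 under DESeq2 size factors, total counts, removal of mitochondrially encoded genes, no filter, a minimum of 10 CPM and a prior count of 2. Over the same settings the medians stayed between -0.45 and -0.40 in K562 and between -1.41 and -1.39 in THP-1, and all 60 single values per line kept their sign. With a fold of 1.5 the number was 4 in K562 and 9 in THP-1, by the construction of that limit. With total counts the median DMSO ratio of THP-1 over K562 was -0.62 in place of -0.50. The fit over 4 libraries gave 0 genes, 131 with DESeq2 and 1 without the filter, and the cause was not tested. The minimum of 10 CPM gave a share of all genes at least 2-fold lower of 8.02% in K562 and 6.88% in THP-1, and no filter gave 15.9% and 15.6%. The fit over 4 libraries compares the treatments within each line through its cell line term, and without that term it gave 0 genes as well. Beyond that pairing by line, a block by replicate number could not be fitted, since each group had 1 library and the labels carry no numbers. Depth limits DHODH most, with 67 counts in THP-1 periplocin.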

Other observations

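Of the 7494 genes with at least 10 CPM in all 4 libraries, the 5 whose level profile over these libraries lay nearest to the median profile of the 10 enzymes, in Euclidean distance of centred log2 CPM, were NADK2, FARSB, PPA1, MRTO4 and RUSF1. NADK2, a mitochondrial NAD kinase, was nearest with a distance of 0.109 and had 1417 and 860 counts in K562 (log2 fold change -0.75) and 1235 and 297 in THP-1 (-1.83). FARSB, a subunit of phenylalanyl-tRNA synthetase, had log2 fold changes of -0.84 and -1.93, and PPA1, a pyrophosphatase, of -0.66 and -1.40. MRTO4, a ribosome assembly factor, was at -0.83 and -1.5, and RUSF1 at -0.72 and -1.27, with a distance of 0.302. The likeness is a description over 4 libraries, with no test.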
